A study of Homo sapiens and Mus musculus with 10 samples.

Results

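The response of N2a cells to loss of glucose was measured as RNA in 2 libraries, 1 from mock-treated cells and 1 from cells kept without glucose for 24 h (GD). N2a is an established mouse neuroblastoma line, and the labels give both libraries as wild type. A transcript row was taken as a member when it had 50 or more reads in the higher of the 2 libraries. This held for 9816 of the 24770 rows of the N2a table (39.6%), which took 98.96% of the mock reads and 98.9% of the GD reads. The N2a library from cells treated for 6 h with 300 nM thapsigargin (TG) is used beside them. TG empties the calcium store of the endoplasmic reticulum (ER) and so causes ER stress. In the same series HEK293T cells, a human embryonic kidney line, were put through the same deprivation, and their wild-type mock and GD libraries are set beside N2a for the size of the response. Those libraries form a stress set and a genotype set, with 1 mock and 1 GD library in each. The mock duration is not given in the sources used here.

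Glucose feeds glycolysis, and it also supplies the sugar chains that are attached to proteins folding in the ER. Loss of glucose is therefore known to slow energy production and to load the ER with unfolded protein, which switches on the unfolded protein and integrated stress responses. Many tumour lines are known to take up large amounts of glucose.

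The N2a rows are RefSeq transcript accessions without gene symbols, and the file does not pair them with names. Of the 24770 rows, 0 matched the human reference used here. Genes and pathways are therefore not named, the stress-response and neuronal marker lists could not be read, and the identity of the line was not checked against its markers. What the accessions do give is the RefSeq class. NM rows are protein-coding messenger RNAs, and NR rows are non-coding RNAs, which include long non-coding RNAs, hosts of small RNAs, structural RNAs and transcribed pseudogenes. The members held 9256 coding rows and 560 non-coding rows (5.71%).

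The mock library had 11994514 reads on transcripts and the GD library 11216493, against 11932169 for TG. At least 1 read was found on 20427 rows in mock, 20386 in GD and 22580 in TG. Non-coding rows took 5.09% of the reads in mock, 5.08% in GD and 5.67% in TG. With 1 library per condition there is no measure of spread between cultures, so no difference below carries a p-value, and each describes these libraries. Counting error alone gives 2 equal values of 50 reads a 95% interval of 0.662 to 1.51 for their ratio. At 1000 reads a side the interval is 0.915 to 1.09. Intervals cover counting error only.

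In the GD library 810 members were 2-fold or more higher than in mock and 655 were 2-fold or more lower, on CPM, reads divided by library size, with library sizes scaled by TMM, a method that sets the scale by the bulk of rows. Together these are 1465 of 9816 members (14.9%), with 8.25% higher and 6.67% lower. The middle of the distribution barely moved. The median log2 ratio was −0.01, and the quartiles lay at −0.40 and 0.39. The larger differences leaned upward. At 4-fold or more there were 157 higher and 62 lower rows, and at 8-fold or more 42 higher and 12 lower. At 1.5-fold or more the counts were nearly even, with 1714 higher and 1679 lower. Of the 810 higher rows, 444 had a 95% counting interval lying wholly at 2-fold or more, as had 335 of the 655 lower rows. The higher rows had a median of 174 reads in GD and the lower rows a median of 226 in mock.

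**Figure D1:**
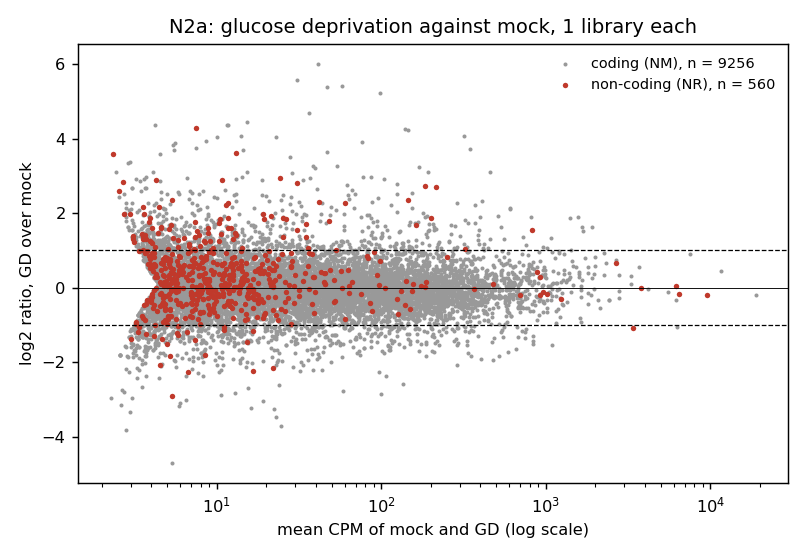
Each point is a member row, placed by its mean CPM over the mock and GD libraries (log axis) and its log2 ratio of GD over mock, with coding rows in grey and non-coding rows in red and dashed lines at 2-fold. The ratios, taken with a prior count of 5, run from −4.71 to 6.01. The gap at the left edge comes from the minimum of 50 reads in the higher library.

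Non-coding rows leaned further towards GD than coding rows. Of the 560 non-coding members, 92 were 2-fold or more higher in GD (16.4%) and 25 were lower (4.46%). Of the 9256 coding members, 718 were higher (7.76%) and 630 lower (6.81%), beside 8.25% and 6.67% over all members. The median log2 ratio was 0.19 for non-coding rows and −0.02 for coding rows. The upper quartile was 0.72 against 0.37, and the lower quartile −0.25 against −0.41. At 4-fold or more, 19 non-coding rows were higher and 5 lower, together 4.29% of them. Coding rows had 138 higher and 57 lower at that size (2.11%). At 8-fold or more, 3 non-coding rows were higher and 0 lower (0.536%), beside 39 and 12 coding rows (0.551%). The share of rows at 8-fold or more was thus nearly the same in both classes. Whether counting used strand is not given in the sources used here, so a non-coding row may share reads with an overlapping coding gene, and their reads cannot be told apart.

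Non-coding rows are less abundant than most coding rows, so both classes were also read within 4 equal groups of the members by mean CPM over the 3 N2a libraries. In the lowest group, from 1.80 to 8.94 CPM, 19.8% of 263 non-coding rows were higher in GD and 6.46% lower, against 14.1% and 11.1% of 2191 coding rows. In the next group the shares were 12.3% and 3.43% of 204 non-coding rows, against 7.82% and 6.62% of 2250 coding rows. In the third group 8 of 56 non-coding rows were higher and 0 lower, against 123 and 122 of 2398 coding rows. In the highest group, above 96.8 CPM, 7 of 37 were higher and 1 lower, against 109 and 116 of 2417. The share of non-coding rows that was higher in GD thus exceeded that of coding rows in each of the 4 groups. Their median log2 ratios were 0.23, 0.20, 0.24 and 0.01 from the lowest group to the highest, against −0.01, −0.01, −0.02 and −0.03 for coding rows. In the highest group the non-coding median was close to the coding one, and the excess there rests on few rows.

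**Figure D2:**
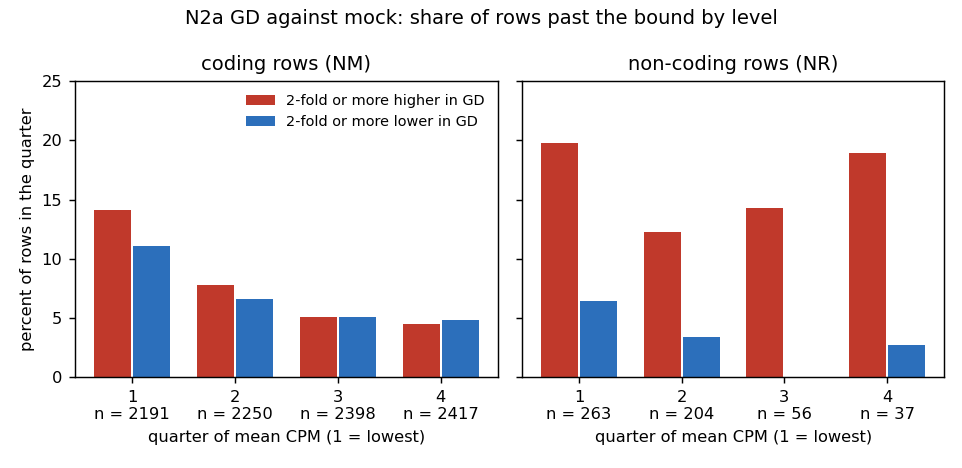
Bars give the percent of rows that were 2-fold or more higher (red) or lower (blue) in GD, for coding rows at left and non-coding rows at right, in 4 equal groups of the members by mean CPM over the 3 N2a libraries. For coding rows the 2 directions converge as the level rises, from 14.1% and 11.1% to 4.51% and 4.80%, while for non-coding rows the higher share stays above the lower one throughout.

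Among all members the share past 2-fold was smaller at higher levels. It was 25.3% in the lowest of the 4 groups and 14.5%, 10.3% and 9.49% in the following ones. Counting error is widest in the lowest group, where the median row had 64 reads in mock and 62 in GD. In the highest group, with medians of 2296 and 2067 reads, counting error is small beside a 2-fold difference, and 116 rows were still higher and 117 lower. At the edge of the read minimum, 72 of 284 rows with 50 to 54 reads in the higher library were past 2-fold, 48 higher and 24 lower, with a median log2 ratio of 0.15. Of 328 rows with 45 to 49 reads, which are not members, 80 were past 2-fold, 42 higher and 38 lower, with a median of 0.04. The share past 2-fold was similar just inside and just outside the minimum, at 25.4% and 24.4%. The upward lean was larger just inside it. These are small groups where counting error is wide, and the difference was not tested.

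Among the most abundant transcripts, changes were mostly under 2-fold, as they were among all members. The row with the most reads, a coding one, held 238958 reads in mock, 191331 in GD and 341761 in TG, and its log2 ratio was −0.21 in GD and 0.41 in TG. The row next to it, also coding, held 114495, 145135 and 80098 reads, with 0.45 in GD and −0.62 in TG. These 2 rows lay on opposite sides of mock in GD and in TG, while others of the most abundant rows lay on the same side in both. Of the 20 rows with the most reads in mock and GD together, 2 were past 2-fold in GD and both were lower. The share past 2-fold was 9.49% in the highest of the 4 groups and 14.9% over all members. The 20 rows therefore do not stand apart, and 2 rows are too few to give a direction. A coding row went from 98937 reads in mock to 44367 in GD and 48385 in TG (log2 −1.05 and −1.14). A non-coding row went from 54221 to 23536 and 32354 (−1.09 and −0.85). Both were lower than mock in GD and in TG, which were compared with the same mock library. These abundant rows were singled out after their values were seen.

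The highest ratio was that of NM_013675, with 10 reads in mock, 890 in GD and 92 in TG. Its scaled reads were 96.1-fold higher in GD than in mock (95% counting interval 52.03 to 201.2), and the log2 ratio with a prior count of 5 was 6.01. In TG they were 8.55-fold higher than in mock (4.45 to 18.4), and GD exceeded TG directly by 11.2-fold (9.06 to 14.1). The next was NM_013624, with 10 reads in mock, 657 in GD and 25 in TG. It was 70.96-fold higher in GD than in mock (38.3 to 148.7), with a log2 ratio of 5.57, and 30.5-fold higher in GD than in TG (20.5 to 47.5). Both were thus low in mock and far higher in GD than in TG, and their fold against mock rests on 10 reads.

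The lowest ratio was that of NM_001080130, with 126 reads in mock, 0 in GD and 105 in TG. With GD set to a floor of 3 reads, its scaled reads were 38.9-fold lower in GD than in mock. The exact 95% lower limit of this fold, taken from the 0 reads, was 31.2. Against TG the fold at that floor was 30.1, with an exact 95% lower limit of 24.1. TG itself was close to mock, at a ratio of 0.775 with an interval of 0.592 to 1.01. NM_013917 followed, with 66 reads in mock, 0 in GD and 25 in TG. At the same floor it was 20.4-fold lower in GD than in mock (exact 95% lower limit 16.1). Against TG it was 7.17-fold lower (exact 95% lower limit 5.41). In TG it was at 0.352 of mock (0.213 to 0.566). These were the only members with 0 reads in GD, while 2 other members had 0 reads in mock, with 51 and 91 reads in GD. All other members had reads in both libraries. The folds of the named rows are of single transcript rows and not of genes. How reads were shared between transcripts of a gene is not given in the sources used here.

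TG, the other stress given to N2a, had more rows past 2-fold of mock than GD had. Under the same rule 1871 of 10290 rows were past 2-fold in TG against mock (18.2%), with 1158 higher (11.3%) and 713 lower (6.93%). GD and TG share the mock library and differ in time, 24 h against 6 h, so agent and time cannot be told apart. Set against each other directly, GD was 2-fold or more higher than TG in 763 of 10298 rows (7.41%) and lower in 1063 (10.3%), together 17.7% of the rows. Among these, 75 of 669 non-coding rows were higher in GD and 146 lower, a share of 11.2% and 21.8%. Against mock, 27.4% of 653 non-coding rows were higher in TG and 7.66% lower, beside 16.4% and 4.46% in GD. Among rows with 1000 or more reads GD and TG came close, with 164 of 2874 rows higher and 152 lower in GD, and 156 of 3017 higher and 196 lower in TG.

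After the same deprivation a smaller share of HEK293T rows was past 2-fold. It was 650 of 8904 rows in the stress set (7.3%), 332 higher (3.73%) and 318 lower (3.57%), and 676 of 9927 in the genotype set (6.81%), 237 higher (2.39%) and 439 lower (4.42%), beside 14.9% in N2a. Among rows with 1000 or more reads, the share was 11.0% of 2874 rows in N2a, 3.20% of 3405 in the stress set and 2.75% of 3058 in the genotype set. The spread between the quartiles of the log2 ratio over all members was 0.80 in N2a, 0.61 in the stress set and 0.60 in the genotype set. Non-coding rows had a median log2 ratio of 0.18 in the stress set and 0.05 in the genotype set, beside 0.19 in N2a. In the stress set 7.55% of 689 non-coding rows were higher and 3.05% lower, and in the genotype set 4.70% of 702 were higher and 4.84% lower. The tables hold different transcripts from 2 species and were scaled separately. They also differ in the rows they keep. Of the 11976 rows of the genotype set, 11972 had reads in mock and 11965 in GD, against 20427 and 20386 of 24770 in N2a. Rows without reads in 1 library are thus almost absent from the genotype set. How far this lowers its share past 2-fold was not tested. With 1 N2a pair the difference between the lines was not tested.

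**Figure D3:**
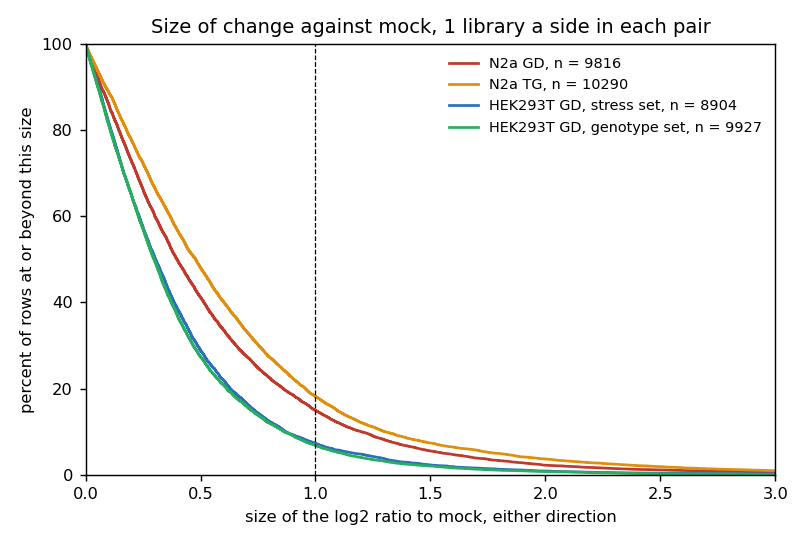
Each line gives, for a pair of libraries, the percent of member rows (vertical axis) whose log2 ratio to mock is at or beyond the size on the horizontal axis, in either direction; the dashed line marks 2-fold. At 2-fold the N2a lines stand at 14.9% for GD and 18.2% for TG, above both HEK293T GD lines at 7.3% and 6.81%. The genotype set holds almost no rows without reads, unlike N2a.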

How the data were processed

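RNA of N2a and HEK293T cells was sequenced after removal of ribosomal RNA. Each deposited table gives raw counts: the number of reads the authors assigned to a RefSeq transcript, without normalization. The submitters' processing notes name the builds mm10 and hg19 and, as tools, bedtools, Bowtie2, cutadapt and FastQC. What annotation release, counting rule and strand setting were used is not given in the sources used here. In these data, the lowest row sum in the N2a table was 1.

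Counts were scaled by TMM over the 3 N2a libraries (edgeR 4.0.16 in R 4.3.3), and log2 ratios of CPM took a prior count of 5. Members (at least 50 reads in mock or GD) with a ratio of at least 2-fold were past the bound. Folds given in the text divide scaled reads, and their 95% intervals are exact and conditional on the summed reads. With 1 library per condition no test was run. The HEK293T tables were scaled separately. All 10 count columns were mapped to samples. The functions were tested on simulated counts.

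The members, the gene lists and the rules were chosen with earlier results of these data known. The 35 gene lists, the marker lists, the promoter motifs and the side-by-side reading of HEK293T genes need mouse gene names, so they were not used here. The rows named are the 2 highest and the 2 lowest log2 ratios. The HEK293T TG and UFD1s-deficient libraries entered the scaling of their tables, and no ratios of them are given here.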

Additional observations from a re-analysis of the deposited data

How the results depend on the processing

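No paired analysis was possible because each N2a condition has 1 library, and for the same reason no library could be left out. Reads could not be summed over genes without gene names. Of the other 10 alternatives, 4 changed the scaling. They gave 1457 to 1462 rows past the bound, with 53.5% to 55.3% of them higher in GD, beside 1465 and 55.3%. The median of non-coding rows stayed between 0.17 and 0.19. The median of coding rows was −0.0366 with library totals alone, −0.0359 with RLE size factors and −0.0421 with totals that leave out the 20 most abundant rows, where the median of all members was −0.0316. The read minimum changed the counts most. With 20 reads 2338 of 12953 rows were past the bound (18%), 1292 higher and 1046 lower, with 174 and 77 non-coding rows among them. With 100 reads there were 57 non-coding rows higher and 12 lower. With no filter 3889 rows were past it, 2096 higher and 1793 lower, with 307 and 165 non-coding rows, and the medians of coding and of non-coding rows were both 0. A bound of 1.5-fold gave 3393 rows, 1714 higher and 1679 lower (50.5% higher), with 174 and 72 non-coding. A looser bound or minimum adds rows by construction. A prior count of 2 gave 1554. Requiring the counting interval to exclude 1 could remove no row, since any member past 2-fold has too few reads on its lower side, so its count of 1465 says nothing of stability. The read minimum and the bounds do not enter the ratios of the 4 named rows, and no scaling tried could turn their direction. The prior count does enter their log2 ratios. With a prior count of 2 the lowest was −6.00 and the second lowest −5.09, beside −4.71 and −3.83. The highest was then 6.33 and the second highest 5.89, beside 6.01 and 5.57. Depth limits the members of lowest level most, where counting error is a large part of a 2-fold difference.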
